A study of Mus musculus with 12 samples.

Results

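The 45 genes described here carry cells through DNA replication and mitosis. They were named by their known roles in the cell cycle, with earlier results of these data known and with no threshold on their values, and all 45 were found among the 14851 genes listed. The group holds 27 genes that act in mitosis and 18 that act in S phase, and all 45 passed the filter on low values in every comparison.

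During S phase the DNA is copied once. The MCM helicase is loaded onto origins by Cdc6 and Cdt1, is activated by Cdc45 and the GINS complex, and is followed by polymerases that work with the sliding clamp PCNA, while ribonucleotide reductase and thymidylate synthase supply the building blocks. In mitosis, Cdk1 with its cyclins condenses the chromosomes and sets up the spindle, kinetochores hold the chromosomes to microtubules, and the anaphase-promoting complex with Cdc20 releases the sister chromatids before the cell divides. Transcripts of both kinds are low in resting cells and rise in cells that cycle: the S-phase genes are induced first, largely by E2F factors, and the mitotic genes later, by the MuvB complex with B-Myb and FoxM1 acting through CHR and CCAAT elements.

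The 562 line grew out spontaneously from cutaneous vascular tumors of tamoxifen-treated Tsc1 f/f;Scl-Cre mice, in which an inducible Cre recombinase under Scl control removes Tsc1 from endothelial cells, so all groups lack Tsc1 although the labels call the control genotype wildtype. The labels give the strain as C57BL/6 and the tissue as lymphatic endothelial cells. Genes of the autophagy pathway were then disrupted by lentiviral CRISPR-Cas9 with puromycin selection: Fip200, a subunit of the ULK1 kinase complex that starts autophagosome formation, and Atg5 and Atg7, members of the conjugation system that attaches LC3 to lipid. RNA of 3 control libraries was compared with that of 3 libraries for each KO line, 12 in all. The same 3 control libraries stand in all 3 comparisons. The study describes the RNA samples of each KO as independent replicates and its experiments in general as biological triplicates, without stating whether separate cultures or clones were used, so p-values measure the spread between these samples.

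Between 17264989 and 23627944 reads per library fell on the listed genes, and no member had fewer than 62 reads in any library. Of the targeted genes, Atg7 was lower in all Atg7 KO libraries (log2 fold change −1.97 ± 0.37 SE, adjusted p = 0.0216 in limma). Rb1cc1, the gene of FIP200, was at 5.18, 6.84 and 2.06 RPKM in Fip200 KO against 6.43, 8.27 and 7.73 RPKM in control libraries (adjusted p = 0.404). Atg5 was at 8.53, 15.5 and 12.6 RPKM in Atg5 KO against 14.2, 11.1 and 10.6 RPKM in control libraries (adjusted p = 0.994). A CRISPR edit need not lower a transcript, so these levels do not check the Fip200 KO and Atg5 KO labels. All 10 endothelial markers were at 1 RPKM or more in every library. They summed to between 1315 RPKM (replicate 2) and 3273 RPKM in control, between 2360 and 3112 RPKM with Fip200 KO, between 3219 and 3598 RPKM with Atg5 KO and between 2626 and 3508 RPKM with Atg7 KO. Of the 10, 5 were higher in Atg5 KO cells at an adjusted p of at most 0.1 (22.9% of all tested genes) and 0 were lower, and 0 passed in Atg7 KO and Fip200 KO cells. Every library also held at 1 RPKM or more 3 of the 5 lymphatic endothelial markers found in the tables. Prox1, the defining factor of lymphatic endothelium, ran from 0.0366 to 5.79 RPKM. Of the 4 leukocyte markers in the tables, Ptprc, Adgre1 and Csf1r stayed under 0.5 RPKM in every library, whereas Cd68 ran from 6.95 to 263 RPKM, with 91.7, 49.8 and 34.4 RPKM in control, and fell in Atg5 KO (−2.26 ± 0.33, adjusted p = 0.0064) and Atg7 KO cells (−1.70 ± 0.55, adjusted p = 0.0798). The 9 fibroblast and mural markers in the tables summed to between 2.60 and 214 RPKM, highest in control replicate 2. The part of these marker levels in the results below was not tested. RPKM is the number of reads scaled by the length of the gene and the total reads of the library, so levels can be compared between genes. Values of single libraries are given in the order of replicates 1, 2 and 3, and levels averaged over genes are means of log2(RPKM + 0.5). In bulk RNA a larger share of cycling cells and more RNA of a gene per cycling cell cannot be told apart.

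The mitotic genes stood higher in Atg5 KO and Atg7 KO cells than in control 562 cells, and the gap was smaller for the S-phase genes. The mean level of the 27 mitotic genes was 4.05, 4.65 and 4.64 in the control libraries and 5.30, 5.28 and 5.16 in the Atg5 KO libraries. It was 5.28, 4.85 and 5.26 in the Atg7 KO libraries and 4.42, 4.69 and 5.55 in the Fip200 KO libraries. All 6 Atg5 KO and Atg7 KO libraries lay above all 3 control libraries, and the means were 5.25 ± 0.08 and 5.13 ± 0.25 against 4.45 ± 0.34 (SD, n = 3). The mean level of the 18 S-phase genes was 3.96, 4.56 and 4.51 in control libraries, 4.79, 4.83 and 4.67 with Atg5 KO and 4.82, 4.72 and 4.62 with Atg7 KO. Again no Atg5 KO or Atg7 KO library overlapped the control libraries, with means of 4.77 ± 0.08 and 4.72 ± 0.10 against 4.34 ± 0.33. The Fip200 KO libraries were at 4.10, 3.85 and 5.19 for the S-phase genes, 1 of them below all control libraries and 1 above all the others. The mean over all tested genes moved little, from 3.35 ± 0.01 in control to 3.27 ± 0.04 in Atg7 KO cells.

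Within a library, the mitotic mean minus the S-phase mean compares both stages of the cycle in the same RNA. This difference was 0.10, 0.09 and 0.13 in the control libraries. In Atg5 KO cells it was 0.51, 0.45 and 0.49, and all 3 values were above the control range. Fip200 KO libraries gave 0.32, 0.83 and 0.36, also all above control, although the levels themselves were spread widely. In Atg7 KO cells it was 0.46, 0.13 and 0.63, and replicate 2 lay within the control range. No test was made of this difference, because the genes were chosen with earlier results of these data known.

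**Figure D1:**
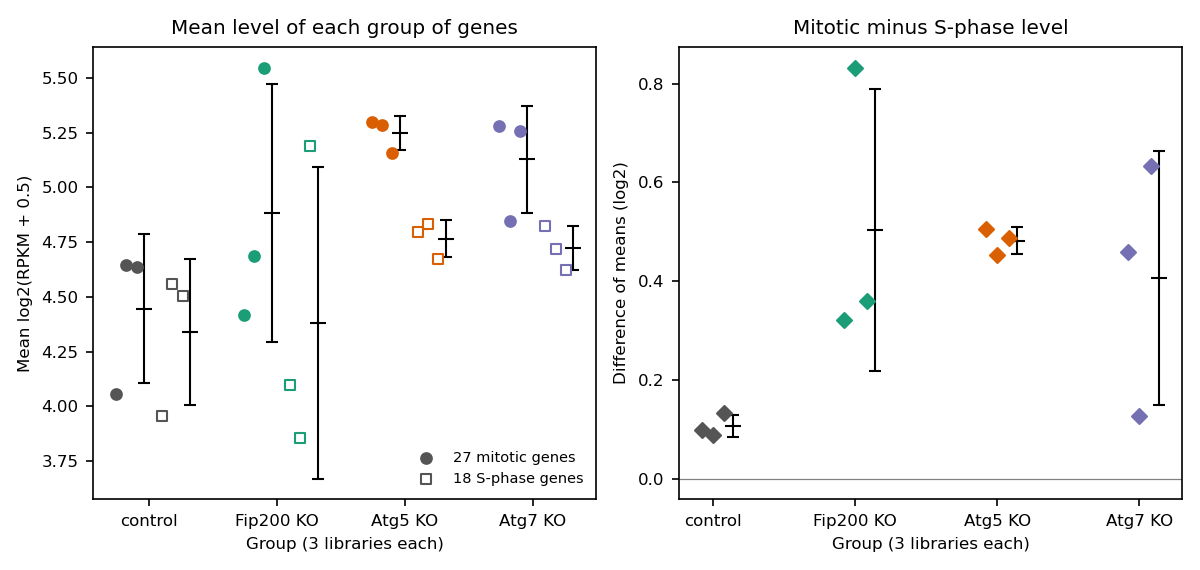
Left, mean log2(RPKM + 0.5) of the 27 mitotic genes (filled circles) and of the 18 S-phase genes (open squares) in each of the 12 libraries; right, the mitotic mean minus the S-phase mean of the same library. Horizontal marks and bars are the mean and SD of 3 libraries. The control differences lie between 0.09 and 0.13, and of the 9 KO libraries 1 (Atg7 KO replicate 2) lies within that range.

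Single libraries stood apart in both reference and KO groups. Control replicate 1 was the lowest control library for 43 of the 45 genes and the lowest of all 12 libraries for 28 of them. Fip200 KO replicate 3 was the highest of its group for 44 genes and the highest of all 12 for 30. Atg7 KO replicate 2 was the lowest of its group for 25 of the 27 mitotic genes but for 4 of the 18 S-phase genes. The map of levels by library shows these columns.

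**Figure D2:**
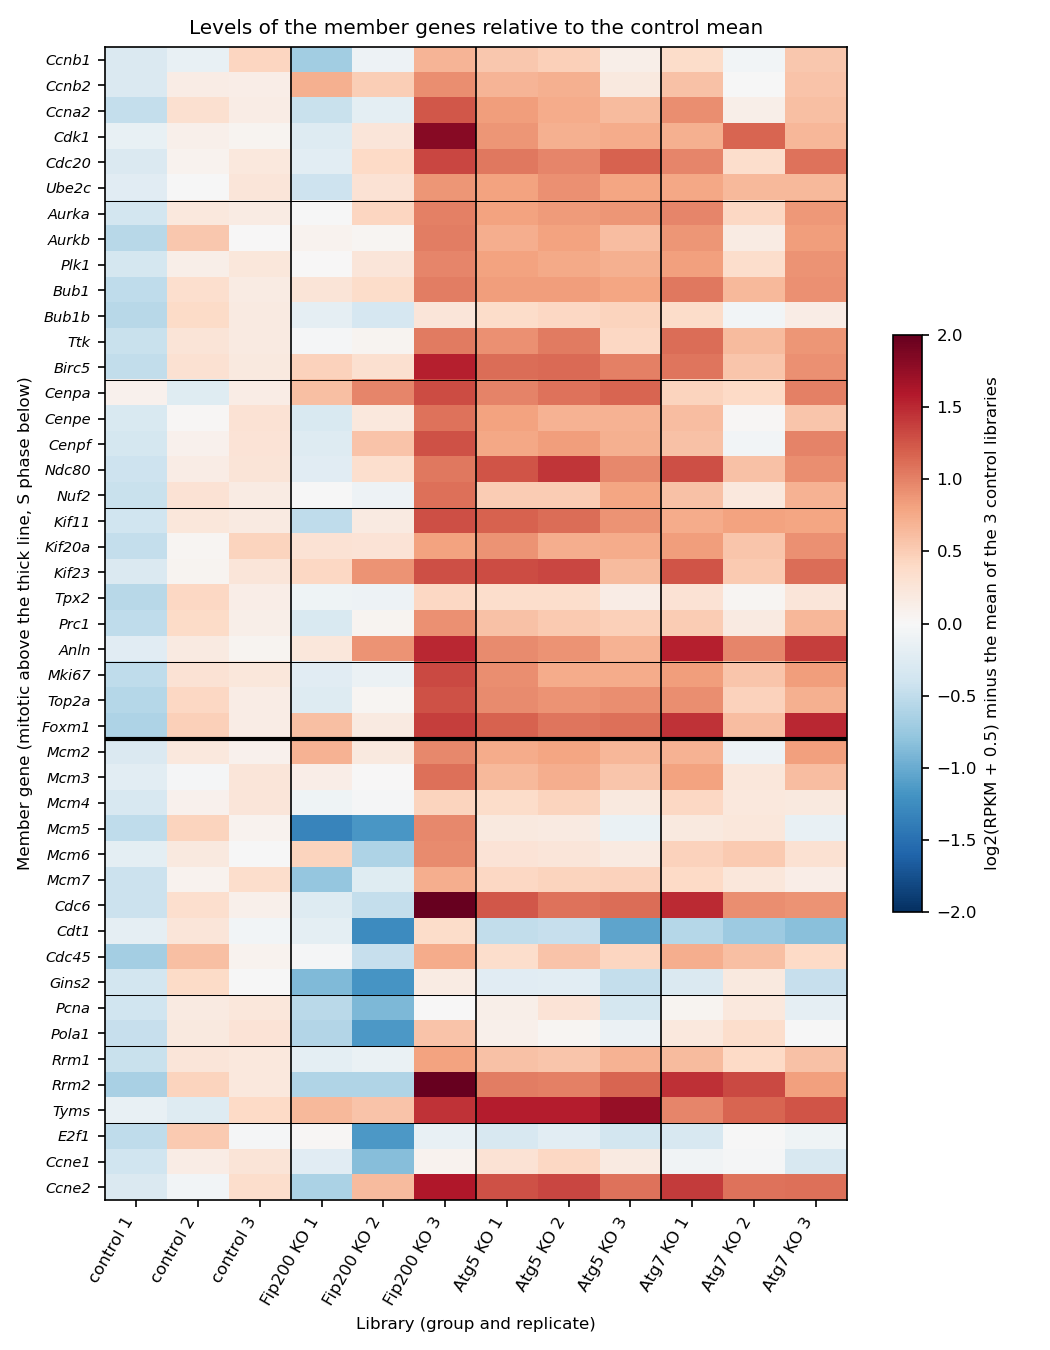
Each row is a gene and each column a library; colour gives log2(RPKM + 0.5) minus the mean of the 3 control libraries, from blue (lower) to red (higher), cut at 2 on either side. Thin lines separate roles and the thick line separates the 27 mitotic genes from the 18 S-phase genes. The mitotic rows are red in most Atg5 KO and Atg7 KO columns, the S-phase rows are mixed, control replicate 1 is blue in nearly all rows, and Fip200 KO replicate 3 is the reddest column.

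Each gene was tested on its own by limma over all tested genes, with Benjamini-Hochberg adjustment, and a gene is said to have risen or fallen at an adjusted p of at most 0.1. In Atg5 KO cells 23 of the 27 mitotic genes rose and 0 fell, while over all 11833 tested genes 22.9% rose and 18.7% fell. Of the 18 S-phase genes, 7 rose and 1 fell. The median log2 fold change was 0.79 for mitotic genes (from 0.28 to 1.22), 0.39 for S-phase genes (from −0.67 to 1.63) and 0.06 for all tested genes. A log2 fold change of at least 1 besides the adjusted p was reached by 7 mitotic and 4 S-phase genes, against 4.31% of all tested genes in this direction. Every Atg5 KO library lay above every control library for 24 mitotic and 8 S-phase genes (28.4% of all tested genes). Without control replicate 1 the 7 and 4 became 2 and 2 and the S-phase median became 0.16, whereas 16 of the 23 mitotic and 6 of the 8 S-phase changes passed in each of the 6 fits that left out 1 library. The count of 23 became 13 with all 12 libraries in 1 fit and 2 with the prefix of the library names as a term.

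In Atg7 KO cells 16 of the 27 mitotic genes rose and 0 fell, against 11.3% and 13.7% of the 11784 tested genes, and 4 of the 18 S-phase genes rose and 1 fell. The median log2 fold change was 0.70 for mitotic genes (from 0.15 to 1.30), 0.35 for S-phase genes (from −0.71 to 1.21) and −0.01 for all tested genes. A log2 fold change of at least 1 was reached by 2 mitotic and 4 S-phase genes (3.29% of all tested genes), and every KO library lay above every control library for 17 mitotic and 6 S-phase genes (19.2%). The count of 16 depended on single libraries, since it was 2 without Atg7 KO replicate 1, 3 without Atg7 KO replicate 3, 5, 6 and 3 without control replicates 1, 2 and 3, and 22 without Atg7 KO replicate 2. The count of 4 raised S-phase genes became 2 without Atg7 KO replicate 1 or control replicate 3, and the S-phase median became 0.17 without control replicate 1. Anln, Tyms and Ccne2 were the genes that passed in each of the 6 fits. With the prefix of the library names as a term, no raised or fallen member passed in Atg7 KO cells, and their smallest adjusted p was 0.387, for Kif23.

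In Fip200 KO cells 0 of the 45 genes passed the test in limma, whether on log2(RPKM + 0.5) or by voom on whole reads recovered from the RPKM values, and 6 had an unadjusted p under 0.05, or 13.3% of the 45 against 16.1% of all tested genes. In this fit of 6 libraries, 0.356% of all 11803 tested genes rose and 1.69% fell. With all 12 libraries in 1 fit, 3 mitotic and 1 S-phase genes rose. The share of all tested genes that rose in that other fit is not given here. The median log2 fold change was 0.39 for mitotic genes, of which 25 of 27 were above 0 (51.2% of all tested genes), and 0.10 for S-phase genes, of which 10 of 18 were. Every Fip200 KO library lay above every control library for 5 mitotic and 1 S-phase genes, against 11.7% of all tested genes. Without Fip200 KO replicate 3 the medians were 0.05 and −0.43, so the direction of the S-phase genes turned with this library, and it also turned to −0.16 without control replicate 1. The mitotic median was 0.18 without control replicate 1 and 0.65 without Fip200 KO replicate 1.

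**Figure D3:**
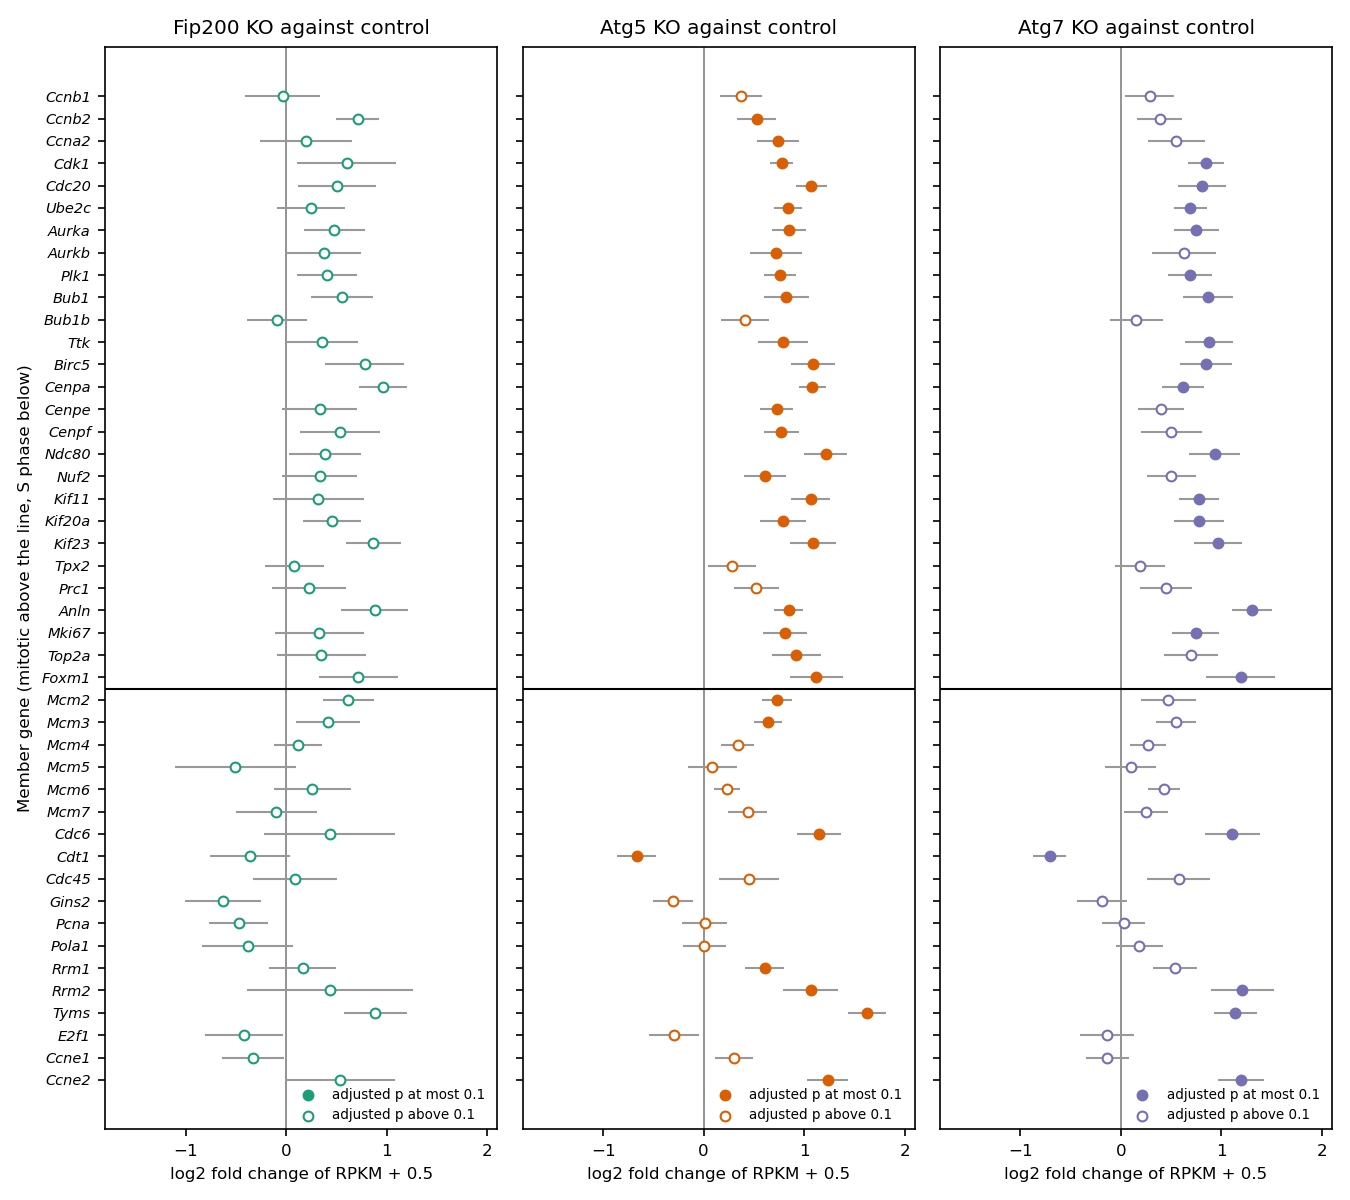
Log2 fold change of RPKM + 0.5 against the 3 control libraries for each of the 45 genes, in a panel for each KO, with its standard error as a horizontal bar (3 libraries per group). Filled circles mark an adjusted p of at most 0.1: 23 mitotic and 8 S-phase genes in Atg5 KO, 16 and 5 in Atg7 KO and 0 in Fip200 KO. The mitotic genes all lie to the right of 0 for Atg5 KO and Atg7 KO (54.1% and 49.4% of all tested genes do), and the S-phase genes lie on both sides.

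Both classes of genes differ in their promoters, which played no part in choosing them. RefSeq promoter windows of GRCm38.p6, from 250 bases before to 50 after the start, were matched by gene identifier for 37 of the 45 genes. The 8 others are Ccna2, Aurkb, Kif20a, Tpx2, Foxm1, Mcm4, Gins2 and Ccne2. Both strands were searched for the CHR element (TTTGAA with its variant TTCGAA), the CCAAT box (CCAAT) and the core of E2F sites (TTGGCGC with its variants TTCCCGC as well as TTCGCGC besides TTGCCGC), and overlapping matches were each counted. A CHR match lay in 18 of 22 mitotic genes (81.8%) and in 3 of 15 S-phase genes (20%), against 16.2% of the genes tested here and 21.7% of all 27025 RefSeq genes with a window. An E2F core lay in 3 of the 22 mitotic genes (13.6%) and 9 of the 15 S-phase genes (60%), against 19.6% and 10.9%. A CCAAT box was frequent in both, in 81.8% of mitotic and 66.7% of S-phase genes, against 43.4% and 41.1%. CHR and CCAAT stood together in 16 mitotic genes (72.7%), 3 S-phase genes (20%) and 8.05% of the tested genes. In the part before the start alone, CHR was in 40.9% of mitotic, 20% of S-phase and 14.4% of tested genes, since many of its matches lie just past the start. The median GC content of the windows was 60.67% for mitotic, 59.5% for S-phase and 60.67% for the tested genes. A match is a description of letters and not a measured binding site.

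**Figure D4:**
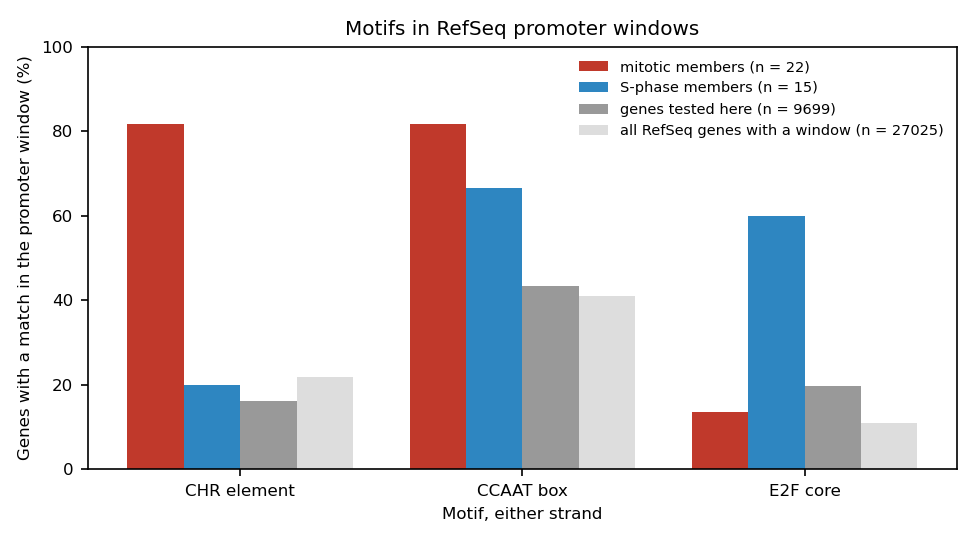
Share of genes with at least 1 match to each motif in the RefSeq window from 250 bases before to 50 bases after the start, on either strand, for the mitotic genes, the S-phase genes, the genes tested here and all RefSeq genes with a window. CHR is found in 81.8% of the 22 mitotic and 20% of the 15 S-phase genes, and the E2F core in 13.6% and 60%.

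The 150 bases before the start are shown for a few genes, picked after the search so that each arrangement can be seen, 5′ to 3′ on the strand of the gene, with the matches in capitals. In the 4 mitotic genes Cdc20 (chr4:118437344-118437493, minus strand), Kif11 (chr19:37376232-37376381, plus strand), Cdk1 (chr10:69352913-69353062, minus strand) and Ube2c (chr2:164769779-164769928, plus strand), a CHR element (TTTGAA, or TTCAAA on the other strand) follows 1 or 2 CCAAT boxes (ATTGG on the other strand).
Cdc20: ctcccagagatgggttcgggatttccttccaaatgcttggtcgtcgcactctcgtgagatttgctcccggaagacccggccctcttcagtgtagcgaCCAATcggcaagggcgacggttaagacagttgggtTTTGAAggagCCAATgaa
Kif11: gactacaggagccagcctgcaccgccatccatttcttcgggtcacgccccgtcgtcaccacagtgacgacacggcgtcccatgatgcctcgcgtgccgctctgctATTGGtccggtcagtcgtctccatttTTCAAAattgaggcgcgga
Cdk1: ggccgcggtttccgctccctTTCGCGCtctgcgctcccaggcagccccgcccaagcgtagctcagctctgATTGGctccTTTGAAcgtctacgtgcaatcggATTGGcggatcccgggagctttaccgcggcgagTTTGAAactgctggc
Ube2c: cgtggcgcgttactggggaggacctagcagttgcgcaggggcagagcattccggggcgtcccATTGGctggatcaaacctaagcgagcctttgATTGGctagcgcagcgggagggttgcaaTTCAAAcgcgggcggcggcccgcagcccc

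Among the S-phase genes, Mcm6 (chr1:128359706-128359855, minus strand) has 2 stretches in which a pair of E2F cores overlaps, Rrm1 (chr7:102441545-102441694, plus strand) has 1 core between 2 CCAAT boxes, and Cdc6 (chr11:98908001-98908150, plus strand) has 1 core far from the start. Cdt1 (chr8:122567865-122568014, plus strand) has none of the 3 motifs in these bases but 2 E2F cores in the bases just past its start, and Tyms has none of the 3 in its whole window.
Mcm6: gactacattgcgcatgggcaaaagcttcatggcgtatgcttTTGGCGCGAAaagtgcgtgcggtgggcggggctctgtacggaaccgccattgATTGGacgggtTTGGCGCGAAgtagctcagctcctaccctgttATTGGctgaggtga
Rrm1: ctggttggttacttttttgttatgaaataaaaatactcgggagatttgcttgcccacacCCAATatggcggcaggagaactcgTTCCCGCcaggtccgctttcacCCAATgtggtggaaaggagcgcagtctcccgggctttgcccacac
Cdc6: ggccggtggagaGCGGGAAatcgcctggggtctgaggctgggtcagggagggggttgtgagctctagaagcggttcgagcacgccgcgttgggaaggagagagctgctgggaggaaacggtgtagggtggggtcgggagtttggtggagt
Cdt1: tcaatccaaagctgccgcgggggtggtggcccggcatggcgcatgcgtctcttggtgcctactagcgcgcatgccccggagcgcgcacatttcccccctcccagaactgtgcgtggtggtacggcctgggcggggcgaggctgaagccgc

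Of the 6 genes of the cyclins, Cdk1 and the exit from mitosis, 5 rose in Atg5 KO and 3 (Cdk1, Cdc20 and Ube2c) in Atg7 KO cells. Over all tested genes 22.9% rose with Atg5 KO and 11.3% with Atg7 KO. Cdc20, which activates the anaphase-promoting complex and carries the CHR element printed above, was at 23.1, 29.98 and 33.2 RPKM in control, 24.5, 37.6 and 72.3 RPKM with Fip200 KO, 59.9, 56.6 and 64.9 RPKM with Atg5 KO and 56.4, 36.3 and 61.3 RPKM with Atg7 KO. All Atg5 KO and all Atg7 KO libraries were above the control libraries, and Fip200 KO replicate 3 was the highest of all 12. Its log2 fold change was 1.07 ± 0.15 with Atg5 KO (adjusted p = 0.00613), 0.80 ± 0.24 with Atg7 KO (adjusted p = 0.0654) and 0.50 ± 0.39 with Fip200 KO (adjusted p = 0.538). Ccnb1, the cyclin B1 that drives entry into mitosis with Cdk1, was among the mitotic genes that differed least. It was at 47.8, 52.6 and 78.5 RPKM in control, 35.8, 54.4 and 93.6 RPKM with Fip200 KO, 84.7, 80.8 and 63.1 RPKM with Atg5 KO and 75.6, 56.1 and 84.5 RPKM with Atg7 KO, and the groups overlapped in all 3 comparisons. The log2 fold change of 0.37 ± 0.21 in Atg5 KO cells did not pass (adjusted p = 0.217), nor did 0.28 ± 0.24 with Atg7 KO (adjusted p = 0.44) or −0.04 ± 0.37 with Fip200 KO (adjusted p = 0.968). Ube2c, the ubiquitin-conjugating enzyme of the anaphase-promoting complex, had the highest level among the mitotic genes, with a mean of 95.3 RPKM in control and 169 RPKM in Atg5 KO cells.

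Of the 7 mitotic kinases and checkpoint genes, 6 rose with Atg5 KO and 5 with Atg7 KO, against 22.9% and 11.3% of all tested genes. They include Aurka and Aurkb, the Aurora kinases of the spindle poles and the centromere, and Plk1, the polo-like kinase, with log2 fold changes between 0.72 and 0.85 in Atg5 KO cells. Birc5, or survivin, a subunit of the chromosomal passenger complex, was at 5.11, 9.27 and 8.57 RPKM in control, 10.4, 9.42 and 22.8 RPKM with Fip200 KO, 16.7, 16.8 and 15.4 RPKM with Atg5 KO and 16.2, 11.2 and 14.4 RPKM with Atg7 KO. Every KO library of all 3 kinds was above every control library. The log2 fold change was 1.08 ± 0.22 with Atg5 KO (adjusted p = 0.0146), 0.85 ± 0.26 with Atg7 KO (adjusted p = 0.0698) and 0.78 ± 0.39 with Fip200 KO (adjusted p = 0.373). Bub1b, the BubR1 protein that holds back the anaphase-promoting complex, did not pass in any comparison. Its levels were 20.8, 40.2 and 35.2 RPKM in control, 27.3, 24.3 and 36.5 RPKM with Fip200 KO, 40.1, 41.4 and 42.2 RPKM with Atg5 KO and 39.9, 29.7 and 34.3 RPKM with Atg7 KO. Control replicate 1 was below all other libraries, and the other 11 libraries overlapped. The log2 fold changes were 0.41 ± 0.24, 0.15 ± 0.26 and −0.09 ± 0.30 for Atg5, Atg7 and Fip200 KO in turn (adjusted p = 0.221, 0.711 and 0.903). Its partner Bub1 rose in both Atg5 KO (0.82 ± 0.22, adjusted p = 0.0323) and Atg7 KO cells (0.87 ± 0.25, adjusted p = 0.06).

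All 5 kinetochore and centromere genes rose in Atg5 KO cells and 2 of them, Cenpa and Ndc80, in Atg7 KO cells (22.9% and 11.3% of all tested genes). In Atg7 KO cells each of these 2 passed in 1 of the 6 fits that left out 1 library. Ndc80, which couples the kinetochore to microtubules, was at 8.22, 12.5 and 13.5 RPKM in control and 27.4, 30.7 and 22.2 RPKM in Atg5 KO libraries, with no overlap and the largest log2 fold change of the mitotic genes there (1.22 ± 0.21, adjusted p = 0.0101). The Atg7 KO libraries were at 27.8, 17.1 and 21.6 RPKM, also all above control (0.93 ± 0.25, adjusted p = 0.0532). In Fip200 KO libraries it was at 9.49, 14.2 and 23.6 RPKM and overlapped control (0.39 ± 0.36, adjusted p = 0.617). Nuf2, the protein that pairs with Ndc80, was at 10.3, 17.4 and 15.97 RPKM in control and 20.5, 20.5 and 25.003 RPKM in Atg5 KO libraries, with a log2 fold change of 0.61 ± 0.21 (adjusted p = 0.0686). Cenpa, the histone H3 variant of centromeres, was at 23.7, 18.8 and 24.7 RPKM in control, 34.04, 44.2 and 55.8 RPKM with Fip200 KO, 44.6, 47.5 and 50.7 RPKM with Atg5 KO and 30.6, 29.4 and 44.97 RPKM with Atg7 KO. All 9 KO libraries were above all control libraries, and control replicate 1 was not the lowest of the controls for this gene. The log2 fold change was 1.08 ± 0.13 with Atg5 KO (adjusted p = 0.00483) and 0.62 ± 0.21 with Atg7 KO (adjusted p = 0.092). In Fip200 KO cells it was 0.96 ± 0.24, the largest of all 45 genes in that comparison, and missed the threshold (adjusted p = 0.135).

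Of the 6 spindle and cytokinesis genes, 4 rose with Atg5 KO and 4 with Atg7 KO, against 22.9% and 11.3% of all tested genes. Kif11, or Eg5, the motor that pushes spindle poles apart, was at 9.12, 14.3 and 13.9 RPKM in control, 8.42, 13.96 and 30.5 RPKM with Fip200 KO, 28.3, 27.1 and 23.2 RPKM with Atg5 KO and 20.7, 21.7 and 21.5 RPKM with Atg7 KO. The Atg5 KO and Atg7 KO libraries lay above control without overlap, with log2 fold changes of 1.06 ± 0.19 (adjusted p = 0.0108) and 0.78 ± 0.20 (adjusted p = 0.0466). The Fip200 KO libraries ran from the lowest to the highest of all 12 for this gene (0.32 ± 0.45, adjusted p = 0.748). Kif23, a motor of the central spindle, was at 15.2, 19.5 and 22.1 RPKM in control, 25.2, 35.3 and 46.4 RPKM with Fip200 KO, 46.97, 48.2 and 29.2 RPKM with Atg5 KO and 45.4, 27.003 and 41.3 RPKM with Atg7 KO. Every KO library exceeded every control library. Its log2 fold change was 1.09 ± 0.23 with Atg5 KO (adjusted p = 0.0169), 0.96 ± 0.24 with Atg7 KO (adjusted p = 0.0426) and 0.87 ± 0.27 with Fip200 KO (adjusted p = 0.2).

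Anln encodes anillin, the scaffold of the contractile ring. It was at 20.9, 27.9 and 25.8 RPKM in control, 28.9, 46.4 and 71.3 RPKM with Fip200 KO, 48.1, 46.3 and 40.3 RPKM with Atg5 KO and 73.2, 49.1 and 65.3 RPKM with Atg7 KO. No KO library overlapped control, and the Atg7 KO libraries held the largest change of the mitotic genes in that comparison (1.30 ± 0.20, adjusted p = 0.0137), against 0.85 ± 0.14 with Atg5 KO (adjusted p = 0.00887) and 0.88 ± 0.33 with Fip200 KO (adjusted p = 0.265). Tpx2, which activates Aurora A on the spindle, was the mitotic gene with the smallest value in Atg5 KO cells. Its levels were 25.5, 49.9 and 41.4 RPKM in control, 35.5, 34.9 and 50.2 RPKM with Fip200 KO, 47.97, 47.99 and 41.6 RPKM with Atg5 KO and 46.1, 38.4 and 44.4 RPKM with Atg7 KO. Control replicate 2 was higher than all Atg5 KO and Atg7 KO libraries, and control replicate 1 was the lowest of all 12. Its log2 fold change was 0.28 ± 0.24 with Atg5 KO (adjusted p = 0.396), 0.19 ± 0.25 with Atg7 KO (adjusted p = 0.626) and 0.08 ± 0.29 with Fip200 KO (adjusted p = 0.916).

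The remaining mitotic genes are Mki67, the antigen Ki-67 that coats mitotic chromosomes, Top2a, the topoisomerase that untangles sister chromatids, and Foxm1, the transcription factor of the late cycle. All 3 rose in Atg5 KO cells, and Mki67 and Foxm1 rose in Atg7 KO cells (22.9% and 11.3% of all tested genes). Foxm1 was at 8.92, 19.6 and 15.4 RPKM in control, 21.4, 15.8 and 37.02 RPKM with Fip200 KO, 32.3, 29.9 and 30.6 RPKM with Atg5 KO and 38.9, 21.7 and 40.4 RPKM with Atg7 KO. Atg5 KO and Atg7 KO libraries did not overlap control, and Fip200 KO replicate 2 lay within the control range. Its log2 fold change was 1.12 ± 0.26 with Atg5 KO (adjusted p = 0.0227), 1.19 ± 0.35 with Atg7 KO (adjusted p = 0.0621) and 0.72 ± 0.39 with Fip200 KO (adjusted p = 0.408). Mki67, whose protein is the usual index of proliferation, was at 16.4, 28.8 and 27.6 RPKM in control, 45.6, 39.7 and 39.98 RPKM in Atg5 KO and 42.3, 34.9 and 42.6 RPKM in Atg7 KO libraries (0.81 ± 0.22, adjusted p = 0.0342, and 0.74 ± 0.24, adjusted p = 0.0772). In Fip200 KO libraries it was at 20.2, 21.7 and 59.3 RPKM, within the control range in replicates 1 and 2 and above every other library in replicate 3 (0.33 ± 0.44, adjusted p = 0.738). In its cell assays the study reported fewer colonies of Atg5 KO and Atg7 KO cells and reduced proliferation of Fip200 KO cells. Those assays measure growth and not RNA, and how they relate to these levels was not tested.

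Among the 3 S-phase genes of nucleotide supply, all rose in Atg5 KO cells and 2 in Atg7 KO cells, against 22.9% and 11.3% of all tested genes. Tyms, thymidylate synthase, showed the largest change of all 45 genes in Atg5 KO cells. It was at 6.46, 5.95 and 9.57 RPKM in control, 11.6, 10.8 and 20.3 RPKM with Fip200 KO, 22.2, 22.3 and 25.3 RPKM with Atg5 KO and 14.7, 16.8 and 17.9 RPKM with Atg7 KO, and every KO library was above every control library. The log2 fold change was 1.63 ± 0.19 with Atg5 KO (adjusted p = 0.00419), 1.14 ± 0.21 with Atg7 KO (adjusted p = 0.0216) and 0.89 ± 0.31 with Fip200 KO (adjusted p = 0.238). Rrm2, the regulated subunit of ribonucleotide reductase, was at 9.77, 21.4 and 18.2 RPKM in control, 10.1, 10.2 and 91.2 RPKM with Fip200 KO, 32.3, 32.1 and 35.5 RPKM with Atg5 KO and 44.1, 39.99 and 28.1 RPKM with Atg7 KO. Atg5 KO and Atg7 KO libraries lay above all controls, whereas 2 Fip200 KO libraries were near the lowest control and the third was the highest of all 12. The log2 fold changes were 1.06 ± 0.27 (adjusted p = 0.0289) and 1.21 ± 0.31 (adjusted p = 0.0475), and 0.43 ± 0.82 with Fip200 KO (adjusted p = 0.816), which became −0.60 without replicate 3. Neither rise of Rrm2 passed with all 12 libraries in 1 fit (adjusted p = 0.312 and 0.248) or with the prefix of the library names as a term (0.683 and 0.891). The rise in Atg7 KO cells was also lost without Atg7 KO replicate 1 or control replicate 3. Rrm1, the large subunit of the same enzyme, changed less (0.61 ± 0.20 in Atg5 KO, adjusted p = 0.0556).

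Among the 10 genes of the helicase and its loading, few passed. In Atg5 KO cells 3 rose (Mcm2, Mcm3 and Cdc6) and Cdt1 fell, and in Atg7 KO cells Cdc6 rose and Cdt1 fell. These are 30% and 10% raised, against 22.9% and 11.3% of all tested genes, and 10% fallen in each, against 18.7% and 13.7%. Cdc6, which loads the MCM ring onto origins, was at 1.40, 2.74 and 2.24 RPKM in control, 1.65, 1.35 and 9.85 RPKM with Fip200 KO, 5.60, 4.95 and 5.04 RPKM with Atg5 KO and 6.74, 4.40 and 4.27 RPKM with Atg7 KO. Its level was low, with 125 reads in its poorest library, but Atg5 KO and Atg7 KO libraries were clear of control (1.15 ± 0.22, adjusted p = 0.0125, and 1.11 ± 0.28, adjusted p = 0.0424). Neither rise of Cdc6 passed with all 12 libraries in 1 fit (adjusted p = 0.171 and 0.181) or with the prefix of the library names as a term (0.455 and 0.816). In Fip200 KO cells the value of 0.43 ± 0.65 (adjusted p = 0.767) rested on replicate 3, and was −0.36 without it. Cdt1, the partner of Cdc6 in loading, went the other way. It was at 32.6, 43.8 and 35.8 RPKM in control, 32.2, 15.3 and 48.01 RPKM with Fip200 KO, 26.3, 26.9 and 17.6 RPKM with Atg5 KO and 24.7, 22.3 and 20.7 RPKM with Atg7 KO. All Atg5 KO and Atg7 KO libraries were below all control libraries, with log2 fold changes of −0.67 ± 0.20 (adjusted p = 0.044) and −0.71 ± 0.17 (adjusted p = 0.0353), and −0.36 ± 0.40 with Fip200 KO (adjusted p = 0.674). The call in Atg5 KO cells was lost without control replicate 2, and that in Atg7 KO cells without Atg7 KO replicate 3 or control replicate 2 or 3. Neither fall passed with all 12 libraries in 1 fit (adjusted p = 0.211 and 0.181) or with the prefix of the library names as a term (0.471 and 0.937).

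The 6 subunits of the MCM ring did not move evenly. Mcm2 was at 24.8, 35.4 and 32.3 RPKM in control, 49.7, 34.995 and 59.9 RPKM with Fip200 KO, 51.2, 53.2 and 48.4 RPKM with Atg5 KO and 49.97, 28.3 and 54.2 RPKM with Atg7 KO. Its Atg5 KO libraries were above control (0.73 ± 0.15, adjusted p = 0.015), and the Atg7 KO libraries overlapped control through replicate 2 (0.47 ± 0.27, adjusted p = 0.265), as did the Fip200 KO libraries (0.62 ± 0.26, adjusted p = 0.3). Mcm5 was at 21.6, 42.6 and 32.6 RPKM in control, 12.2, 13.6 and 60.7 RPKM with Fip200 KO, 35.7, 35.4 and 28.4 RPKM with Atg5 KO and 35.9, 36.4 and 28.2 RPKM with Atg7 KO. Its Atg5 KO and Atg7 KO libraries lay inside the control range (0.09 ± 0.24, adjusted p = 0.81, and 0.10 ± 0.26, adjusted p = 0.819). Fip200 KO replicates 1 and 2 were the lowest of the 12 libraries for Mcm5 and replicate 3 the highest (−0.51 ± 0.60, adjusted p = 0.698). Mcm4, Mcm6 and Mcm7 had log2 fold changes between 0.23 and 0.44 in Atg5 KO and between 0.25 and 0.43 in Atg7 KO cells, and none of the 3 passed. Gins2, a subunit of the GINS complex, was at 22.8, 38.8 and 29.5 RPKM in control, 15.9, 12.8 and 33.4 RPKM with Fip200 KO, 25.4, 25.7 and 21.2 RPKM with Atg5 KO and 24.2, 33.9 and 21.4 RPKM with Atg7 KO. The groups overlapped, with log2 fold changes of −0.30 ± 0.20 with Atg5 KO (adjusted p = 0.285), −0.19 ± 0.25 with Atg7 KO (adjusted p = 0.629) and −0.63 ± 0.38 with Fip200 KO (adjusted p = 0.441). Cdc45, which joins MCM and GINS in the active helicase, did not pass in any comparison, with log2 fold changes between 0.09 and 0.58.

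Neither gene of the polymerase and clamp passed in any comparison. Pcna, the sliding clamp and the most abundant of the 45 transcripts, was at 151, 225 and 233 RPKM in control, 138, 107 and 200.5 RPKM with Fip200 KO, 216, 240.4 and 156 RPKM with Atg5 KO and 207, 230.2 and 176 RPKM with Atg7 KO. The Atg5 KO and Atg7 KO libraries overlapped control, with log2 fold changes of 0.01 ± 0.23 (adjusted p = 0.979) and 0.03 ± 0.21 (adjusted p = 0.94), and the Fip200 KO libraries gave −0.47 ± 0.30 (adjusted p = 0.452). Pola1, the catalytic subunit of DNA polymerase alpha, had log2 fold changes of 0.01 ± 0.21 with Atg5 KO and 0.18 ± 0.24 with Atg7 KO.

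The 3 genes of the entry into S phase also differed from each other. Ccne2, cyclin E2, was at 1.34, 1.66 and 2.37 RPKM in control, 0.944, 2.998 and 6.35 RPKM with Fip200 KO, 4.94, 5.17 and 4.29 RPKM with Atg5 KO and 5.43, 4.27 and 4.33 RPKM with Atg7 KO. It rose without overlap in Atg5 KO (1.23 ± 0.20, adjusted p = 0.00844) and Atg7 KO cells (1.20 ± 0.23, adjusted p = 0.0232), and the Fip200 KO libraries held both the lowest and the highest value (0.54 ± 0.55, adjusted p = 0.648). Ccne1, cyclin E1, which serves the same kinase, had log2 fold changes of 0.30 ± 0.19 with Atg5 KO (adjusted p = 0.264) and −0.14 ± 0.21 with Atg7 KO (adjusted p = 0.683). E2f1, the activating E2F factor, was at 10.98, 23.03 and 15.6 RPKM in control, 16.02, 6.89 and 14.3 RPKM with Fip200 KO, 12.6, 13.6 and 12.1 RPKM with Atg5 KO and 12.5, 15.7 and 14.9 RPKM with Atg7 KO. Of the 9 KO libraries, 8 lay inside the control range and Fip200 KO replicate 2 lay below it, and the log2 fold changes of −0.30 ± 0.25, −0.14 ± 0.27 and −0.42 ± 0.39 in Atg5 KO, Atg7 KO and Fip200 KO cells did not pass (adjusted p = 0.396, 0.744 and 0.613).

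The KO groups were compared with each other in 1 fit of all 12 libraries. None of the 45 genes passed in any of the 3 pairs of KO groups, where 0% of all 12233 tested genes passed in limma as well. By voom only genes that also had a log2 fold change of at least 1 were counted, and the count was 0. No member reached that size in limma (0.83 at most), so this count says little. An unadjusted p under 0.05 was reached by 4 members for Atg5 KO against Fip200 KO (7.58% of all tested genes), by 0 for Atg7 KO against Fip200 KO (7.49%) and by 0 for Atg7 KO against Atg5 KO (4.59%). The smallest adjusted p of a member was 0.551, for Tyms in Atg5 KO against Fip200 KO. This outcome depended on Fip200 KO replicate 3. Without it, 4 mitotic and 5 S-phase genes were higher in Atg5 KO than in Fip200 KO cells at a log2 fold change of at least 1 (1.35% of the 12179 tested genes), and 5 S-phase genes and 0 mitotic genes were higher in Atg7 KO than in Fip200 KO cells (1.63%). Rrm2 was higher by 1.66 ± 0.29 in Atg5 KO (adjusted p = 0.0578) and by 1.81 ± 0.29 in Atg7 KO cells (adjusted p = 0.0368), both against the same 2 Fip200 KO libraries. Kif11 was higher by 1.23 ± 0.24 in Atg5 KO cells (adjusted p = 0.0615).

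The library names in the labels begin with 1 of 3 prefixes (FY, JG or Yang), whose meaning is not stated. Control replicate 1 and all Fip200 KO libraries are FY, control replicates 2 and 3 and Atg5 KO replicates 1 and 2 are JG, and Atg5 KO replicate 3 and all Atg7 KO libraries are Yang. Within the JG libraries, 2 against 2, both Atg5 KO libraries were above both control libraries for 25 of the 27 mitotic genes (40.4% of all tested genes) and 11 of the 18 S-phase genes, and below both for 0 mitotic and 4 S-phase genes (33.2% of all tested genes), with median log2 fold changes of 0.63 and 0.19. Within the FY libraries, all 3 Fip200 KO libraries were above the single control library for 23 mitotic and 7 S-phase genes (22.1% of all tested genes), with medians of 0.80 and 0.44. That comparison rests on control replicate 1, the lowest control library for nearly all members. No control library is Yang, so Atg7 KO could not be compared with control within a prefix, and in a fit with the prefix as a term the Yang libraries are tied to control through Atg5 KO replicate 3 alone. In that fit of all 12 libraries, the median log2 fold changes of mitotic genes were 0.63 in Atg5 KO, 0.58 in Atg7 KO and 0.80 in Fip200 KO cells and those of S-phase genes 0.19, 0.30 and 0.44, but only Cenpa, Kif23 and Tyms passed in Atg5 KO cells and 0 members in the others.

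Cell cycle genes outside the 45, taken from lists fixed with earlier results of these data known, were counted in the same way, and are to be read against the 22.9% that rose and 18.7% that fell among all tested genes in Atg5 KO cells and the 11.3% and 13.7% in Atg7 KO cells. Of 64 other mitotic genes, 45 rose and 2 fell in Atg5 KO cells, 20 rose and 2 fell in Atg7 KO cells, and 0 passed in Fip200 KO cells. Of 58 other DNA replication genes, 33 rose and 3 fell in Atg5 KO cells, 20 rose and 0 fell in Atg7 KO cells, and 0 passed in Fip200 KO cells. The median log2 fold change of the mitotic list was 0.70 with Atg5 KO, 0.53 with Atg7 KO and 0.32 with Fip200 KO, and that of the replication list was 0.49, 0.44 and 0.20, so the gap between mitotic and replication genes was smaller here than among the 45. Cenpn, a reader of CENP-A nucleosomes, was the highest of the mitotic list (1.30 ± 0.19 with Atg5 KO, adjusted p = 0.00635, and 1.44 ± 0.35 with Atg7 KO, adjusted p = 0.0388). Pttg1, the securin that guards separase, fell in both (−0.51 ± 0.13, adjusted p = 0.0266, and −0.66 ± 0.17, adjusted p = 0.0481). The lowest of the mitotic list were Cdc25b with Atg5 KO (−0.64 ± 0.14, adjusted p = 0.0201) and Psrc1 with Atg7 KO (−1.05 ± 0.25, adjusted p = 0.0368). Mybl2, of the mitotic list, the B-Myb factor that joins MuvB, was at 6.38, 6.10 and 7.70 RPKM in control and 17.8, 19.6 and 13.0 RPKM in Atg7 KO libraries (1.24 ± 0.20, adjusted p = 0.0166). Gins3 and Gins4, partners of Gins2 in the GINS complex, fell in Atg5 KO cells (−0.42 ± 0.15, adjusted p = 0.0729, and −0.62 ± 0.21, adjusted p = 0.0613). Slbp, which binds histone messenger RNA in S phase, was at 26.6, 17.5 and 26.8 RPKM in control and 61.7, 63.2 and 59.1 RPKM in Atg5 KO libraries (1.38 ± 0.18, adjusted p = 0.00506).

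Of 20 E2F, Rb and MuvB-complex genes, 6 rose and 1 fell in Atg5 KO cells, 4 rose and 2 fell in Atg7 KO cells, and 0 passed in Fip200 KO cells. The raised shares were thus 30% and 20%, against 22.9% and 11.3% of all tested genes. Rbl2, the p130 protein that represses cell cycle genes in resting cells, was at 5.97, 10.0 and 7.77 RPKM in control, 2.88, 2.496 and 2.35 RPKM in Atg5 KO and 2.12, 3.88 and 3.68 RPKM in Atg7 KO libraries. It fell without overlap in both (−1.43 ± 0.20, adjusted p = 0.00614, and −1.18 ± 0.28, adjusted p = 0.0363). Lin9, a core subunit of MuvB, rose in both (0.90 ± 0.16, adjusted p = 0.00995, and 0.96 ± 0.21, adjusted p = 0.029).

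Of 10 CDK inhibitors and G1 cyclins, 3 rose and 2 fell in Atg5 KO, 1 rose and 2 fell in Atg7 KO, and 0 rose and 1 fell in Fip200 KO cells. The raised shares of 30% and 10% stand against the same 22.9% and 11.3%, and the fallen shares of 20% and 20% against 18.7% and 13.7%. In Fip200 KO cells the 1 gene that fell, Cdkn1c, is 10% of the list, against 1.69% of all tested genes. Cdkn1c, the inhibitor p57, was at 92.3, 37.5 and 47.7 RPKM in control libraries, 0.411, 4.29 and 1.24 RPKM in Fip200 KO, 1.48, 1.72 and 0.0491 RPKM in Atg5 KO and 0.287, 2.85 and 1.30 RPKM in Atg7 KO libraries. All 9 KO libraries were far below all control libraries (log2 fold changes of −4.82 ± 0.62 for Fip200 KO, −5.37 ± 0.58 for Atg5 KO and −5.04 ± 0.55 for Atg7 KO, adjusted p = 0.0363, 0.00383 and 0.00771). Cdkn1a, the inhibitor p21, was at 69.2, 53.9 and 92.4 RPKM in control, 30.4, 47.3 and 11.0 RPKM in Atg5 KO and 11.97, 17.5 and 32.4 RPKM in Atg7 KO libraries. It fell without overlap, with −1.46 ± 0.50 for Atg5 KO (adjusted p = 0.0667) and with −1.86 ± 0.37 for Atg7 KO (adjusted p = 0.0243). Cdkn2c, another inhibitor of the list, went the other way in Atg5 KO cells. It was at 3.94, 9.83 and 7.42 RPKM in control and 12.5, 12.2 and 16.2 RPKM in Atg5 KO libraries (0.97 ± 0.31, adjusted p = 0.0543). Ccnd1, cyclin D1, was at 71.1, 38.8 and 46.6 RPKM in control, 99.7, 72.5 and 140.4 RPKM in Atg5 KO and 215, 156 and 227 RPKM in Atg7 KO libraries, and rose in both (0.99 ± 0.30, adjusted p = 0.0474, and 1.95 ± 0.26, adjusted p = 0.0104). A link between these regulators and the 45 genes was not tested.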

How the data were processed

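The RNA-sequencing of 562 cells was read from 3 tables, each holding the 3 control libraries with the 3 libraries of 1 KO. The authors prepared directional libraries from total RNA, trimmed and aligned the reads with TopHat2, counted them with Bioconductor packages and compared groups with edgeR. Genome build, annotation and versions are not given in the sources used here. The authors deposited RPKM values, read as such from the values because the tables do not name the unit. The authors' own fold changes and p-values in the tables were not used. The smallest whole reads that fit the RPKM values (tolerance 0.001) were recovered for 14851 of 14851 genes, 20 of which had no reads. These totals set the depth, and a lower depth widens the error of low genes such as Ccne2. The reads entered 1 alternative test (voom) only, and 1 row without a symbol was kept in the fit.

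The limma test ran on log2(RPKM + 0.5) for genes that reached 0.5 RPKM in 3 or more libraries of the comparison, with variances moderated by empirical Bayes (trend on level) and Benjamini-Hochberg adjustment over all tested genes, so fold changes of low genes are understated. Each KO was fitted with control in 6 libraries, and the KO groups against each other in 12. Because a test for read counts does not suit RPKM values, limma was the main test. It was checked on simulated data. The study calls a gene changed at an adjusted p of 0.1 together with a log2 fold change of 1 in size. Here a gene rose or fell by the adjusted p alone, and counts under both thresholds are given as such. Errors of fold changes are standard errors of the fit, those of levels are SD of 3 libraries. Genes that share reads with near copies could not be told apart here.

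The members and lists were chosen with earlier results of these data known. Values of every library are given for members past both thresholds in any comparison and for the 3 lowest and 3 highest of each phase in each comparison. Nuf2, Mki67 and the other members given values were chosen after their values were seen. The alternatives were other pseudocounts (0.1 and 1), filters, scaling by the median of ratios, 12 libraries in 1 fit, replicate number or name prefix as a term, no trend, voom, an adjusted p of 0.05 and leaving out each library. The JG libraries alone were added after seeing the data. The lowest chi-square per degree of freedom between libraries of a group was 8.19, so none was a duplicate. That pair was Atg5 KO replicates 1 and 2, and every other pair was at 48.5 or more. The part of this close pair in the small spread of Atg5 KO libraries was not tested. The tools were R 4.3.3, limma 3.58.1, Python 3.11.15, numpy 2.4.6, pandas 2.3.3 and matplotlib 3.10.9.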

Additional observations from a re-analysis of the deposited data

How the results depend on the processing

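Counts of genes with an adjusted p of at most 0.1 (raised) or also a log2 fold change of at least 1 (raised 2-fold) moved with the model, while the medians of mitotic genes stayed above 0 in each setting run. With 12 libraries in 1 fit, raised mitotic genes were 13 in Atg5 KO, 10 in Atg7 KO and 3 in Fip200 KO cells, raised S-phase genes were 3, 2 and 1, and S-phase genes raised 2-fold numbered 2 with Atg5 KO and 2 with Atg7 KO. With the name prefix as a term, 2 mitotic and 1 S-phase genes were raised in Atg5 KO cells, with the same numbers (2 and 1) raised 2-fold, and all 4 counts were 0 in Atg7 KO cells. At an adjusted p of 0.05, Atg7 KO cells had 5 mitotic genes raised and 1 raised 2-fold. In the JG libraries alone, Atg5 KO cells had 3 mitotic and 2 S-phase genes raised 2-fold. With a replicate block, Atg7 KO cells had 5 mitotic genes raised and 1 raised 2-fold, and Atg5 KO cells 22 raised; the numbers do not pair the libraries, since same-numbered control and KO libraries correlated between −0.218 and 0.077 in their deviations from the group means. The cause of these shifts was not tested.

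Leaving out 1 library at a time leaves fewer samples. Raised mitotic genes then ranged from 16 to 24 in Atg5 KO and from 2 to 22 in Atg7 KO cells, and those raised 2-fold from 2 to 8 and from 1 to 5. Raised S-phase genes ranged from 6 to 9 and from 2 to 6, and those raised 2-fold from 2 to 4 and from 2 to 4. The median S-phase log2 fold change ranged from 0.16 to 0.47 in Atg5 KO, from 0.17 to 0.43 in Atg7 KO and from −0.43 to 0.24 in Fip200 KO cells. Members called between KO groups ranged from 0 to 9 for Atg5 KO against Fip200 KO and from 0 to 5 for Atg7 KO against Fip200 KO cells. Over all tested genes these 2 ranges were 0 to 300 and 0 to 402. Against control, all tested genes past both thresholds in either direction ranged from 985 to 1502 in Atg5 KO and from 576 to 1514 in Atg7 KO cells.

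Some genes that had not passed changed sign. With the prefix as a term, Bub1b was −0.18 in Atg7 KO and 0.47 in Fip200 KO cells, Ccnb1 was 0.24 and Mcm5 0.0045 in Fip200 KO cells. Leaving out 1 library gave ranges in Atg7 KO cells of −0.13 to 0.34 for Bub1b, −0.39 to 0.12 for E2f1, −0.38 to 0.0019 for Gins2 and −0.084 to 0.39 for Tpx2. In Fip200 KO cells they were −0.37 to 0.10 for Bub1b, −0.40 to 0.29 for Ccnb1, −0.0009 to 1.12 for Ccne2, −0.36 to 0.88 for Cdc6, −0.16 to 0.74 for Kif11, −0.60 to 0.95 for Rrm2 and −0.20 to 0.28 for Tpx2. Of the other values computed under the alternatives for single members, 843 kept direction and side of the adjusted p threshold, 84 lost it and 7 gained it.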
